A study of Mus musculus with 120 samples.

Results

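The proteins described here are the subunits of the mitochondrial respiratory chain and of ATP synthase that are encoded in the cell nucleus. Members were taken by gene name alone, without regard to their values: 90 names in the expression table followed the patterns Nduf, Sdh, Uqcr, Cox (families 4 to 8) and Atp5, and dropping those marked as pseudogenes by -ps left 84 of 48371 gene symbols. Of these, 36 belong to complex I, 4 to complex II, 8 to complex III, 18 to complex IV and 17 to ATP synthase (complex V), with Ndufa4 counted in complex IV, and Ndufa4l2, a relative of Ndufa4, was kept apart. Atp5sl carries an ATP synthase name but is known for complex I assembly, and Cox7a2l is known for joining complexes III and IV. Cox4i1 was not analysed here.

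The cells came from the endolymphatic sac of the inner ear of mouse embryos at E14.5 and were profiled by Smart-seq2, which reads whole transcripts of single cells. Of 120 cells, 58 were wild type and 62 carried the Sox9Y440X allele over a normal Sox9 copy (Sox9Y440X/+), an allele named for a stop codon in the transcription factor SOX9. All cells had been dissociated from the same tissue at the same age, and no treatment is given in the labels. Which animal a cell came from is not given in the sources used here, so each genotype is 1 sample, cells are not replicates, no test was made, and none of the differences below has a replicate check.

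The respiratory chain passes electrons from NADH (complex I) and succinate (complex II) through complex III to oxygen at complex IV, and ATP synthase uses the resulting proton gradient to make ATP. Each complex except complex II joins nuclear subunits with others encoded in mitochondrial DNA. In the endolymphatic sac the mitochondria-rich cells, which depend on the transcription factor Foxi1, carry out acid and anion transport with ATP-driven proton pumps, as intercalated cells do in the kidney.

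Cells with at least 1000 genes per their label were used (57 wild type, 58 Sox9Y440X/+). A gene counted as detected from an FPKM of 1 upward, FPKM being sequenced fragments scaled to the length of the transcript and to the depth of the cell. Cells with at least 3 of 14 epithelium markers (such as Epcam and Cdh1) and a larger share of that list than of 14 mesenchyme markers (such as Col1a1 and Pdgfra) were called epithelial, and connective cells were defined the other way round. The epithelial cells were divided by Foxi1, detected or not. This gave 22 Foxi1-positive, 34 other epithelial and 1 connective cell in the wild type, and 7, 30 and 20 in Sox9Y440X/+, with 1 Sox9Y440X/+ cell in neither class. No member gene entered these classes. Of 64 other epithelial cells, 1 had any Foxi1 reading above 0, and 2 of the 29 Foxi1-positive cells had Foxi1 below 10 FPKM.

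The Foxi1-positive class was checked against 14 other ionocyte markers, among them Slc26a4 and proton pump subunits such as Atp6v1b1. Of these, Slc4a1, Rhcg, Ascl3 and Dmrt2 were listed at 0 in every wild-type Foxi1-positive cell, and Rhbg was detected in none. Wild-type cells of the class had 0 to 9 of the 14 with a median of 4. Its Sox9Y440X/+ cells had 0 to 7, also with a median of 4, against at most 3 in any other epithelial cell. A division of the wild-type Foxi1-positive cells at 4 such markers left 11 on each side, so the class labelled mitochondria-rich held cells with few further ionocyte markers. Genes per label differed between classes, with medians of 4491.5 in wild-type Foxi1-positive, 3046 in wild-type other epithelial, 4520 and 4380 in the matching Sox9Y440X/+ classes and 3623.5 in connective cells. Xist was detected in 10 of 22 and 24 of 34 wild-type epithelial cells of the 2 classes and in 0 of 37 Sox9Y440X/+ epithelial cells, so Xist moved with genotype, and values against wild-type cells without Xist are given below. The effect of the Sox9Y440X allele on the Sox9 transcript level was not tested, so the Sox9 level does not check the genotype labels. Among other epithelial cells, 17 of 34 in the wild type and 29 of 30 in Sox9Y440X/+ had Sox9 detected. Wild-type Foxi1-positive cell 31 stood apart with a summed FPKM of 4.44452e+06, and values without it are given below. Cell 10 of the same class followed at 1.74911e+06, with a member share of 1.04%, and values without cell 10 are not given.

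Promoters were examined because the members share a function and many differed in the same direction between cell classes. RefSeq promoter windows on GRCm38.p6, from 250 bases before to 50 after the start, were matched for 67 members. They were searched on both strands for 3 motifs known from such genes: the degenerate consensus of the factor NRF1, CCGGAAG of ETS factors and AAGATGG of YY1. Matches of different motifs may overlap. The NRF1 consensus was in 6 of 67 member windows (8.96%) against 1.31% of 27025 windows in all, the ETS letters in 15 (22.4%) against 9.12%, and the YY1 letters in 9 (13.4%) against 6.48%. At least 1 of the 3 was in 29 (43.3%) against 15.9%, and median GC content was 57.3% against 52.7%. The motifs and the printed windows were chosen after the differences and earlier matches were seen. A shorter, less strict NRF1 pattern tried first matched more members and more promoters in all, and a longer YY1 form fewer of both. Windows of 30 bases around the NRF1 match, 5′ to 3′ on the gene's strand, are shown for the 4 members with a measured difference and a match before the start, from the largest to the smallest difference between Foxi1-positive and other epithelial cells of the wild type. Capitals mark the letters matched on either strand.
Sdhd: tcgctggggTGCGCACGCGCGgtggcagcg
Atp5g2: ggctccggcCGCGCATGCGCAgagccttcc
Ndufb4: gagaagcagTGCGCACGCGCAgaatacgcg
Ndufa11: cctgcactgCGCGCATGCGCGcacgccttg
These lie at chr9:50603909-50603938 (minus strand), chr15:102671070-102671099 (minus), chr16:37654540-37654569 (minus) and chr17:56717692-56717721 (plus). Their differences were 1.5, 0.98, 0.91 and -0.37 log2 units. The ETS letters are shown likewise for the 2 members of largest (Ndufb6, Ndufb7) and the 2 of smallest difference (Atp5e, Uqcrh) among those with a match before the start, with CTTCCGG where the match is on the other strand.
Ndufb6: tcgtccttgttCTTCCGGtcccctccccta
Ndufb7: gcctagatgacCCGGAAGacactgaagggg
Atp5e: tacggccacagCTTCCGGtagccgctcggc
Uqcrh: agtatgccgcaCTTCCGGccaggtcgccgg
Their places are chr4:40279635-40279664 (minus), chr8:83566727-83566756 (plus), chr2:174464185-174464214 (minus) and chr4:116075062-116075091 (minus). A match describes letters and shows no binding. The NRF1 consensus was in 2 of 43 members at least 1 log2 unit higher in wild-type Foxi1-positive cells (4.65%) and in 4 of 20 members below that (20%), and the ETS letters in 11 of 43 (25.6%) and 4 of 20 (20%).

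Foxi1-positive cells held more respiratory chain transcript than other epithelial cells on the median, with wide overlap. In the wild type the summed FPKM of the 84 members was 7913 in the lowest, 17982 in the median and 40900 in the highest Foxi1-positive cell, and 8127, 11194 and 20736 in other epithelial cells. Of the 22 Foxi1-positive cells, 18 lay above the median other epithelial cell and 7 above every one of them. In Sox9Y440X/+ the values were 10503, 19720 and 29002 in Foxi1-positive cells and 6504, 12056 and 19022 in other epithelial cells, with 5 of 7 above the median and 4 above every other epithelial cell. As a share of all FPKM in the cell, the median was 3.81% against 2.61% in the wild type and 3.82% against 2.44% in Sox9Y440X/+. Connective Sox9Y440X/+ cells, at 9018, 12554 and 24016 FPKM and a median share of 2.85%, overlapped the other epithelial cells widely, with 3 of 20 above the highest of them.

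**Figure D1:**
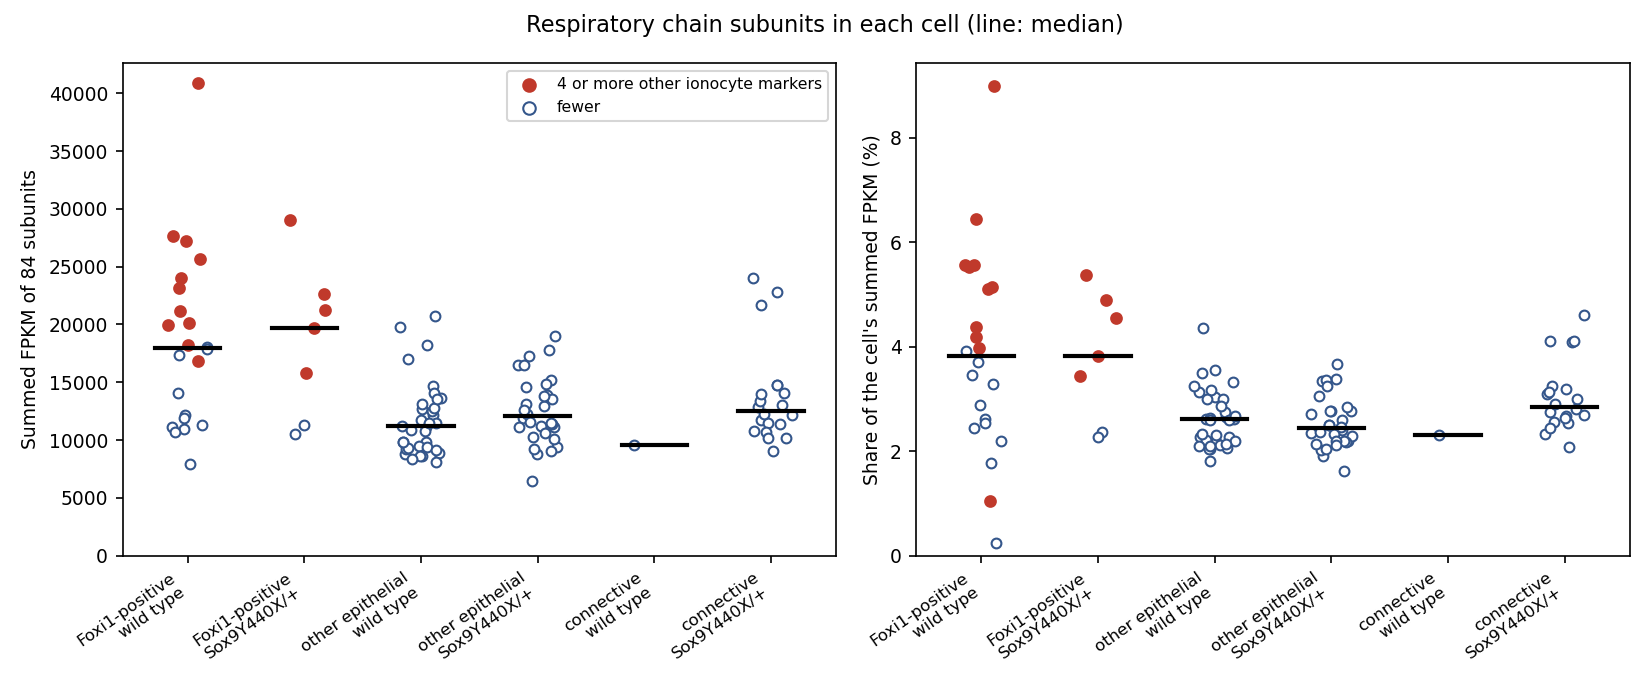
Summed FPKM of the 84 subunits in each used cell (left axis panel) and its share of the cell's summed FPKM in % (right panel), by class and genotype. Each point is a cell, black lines are medians and filled points are cells with 4 or more other ionocyte markers, all of which are Foxi1-positive. Wild-type medians are 17982 in Foxi1-positive and 11194 in other epithelial cells.

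Within the Foxi1-positive class the member level went with the number of other ionocyte markers, a division made after the values were seen. The 11 wild-type cells with at least 4 of these markers summed to 16799, 23155 and 40900 FPKM (lowest, median, highest), and the 11 with fewer to 7913, 11904 and 18053, so the ranges overlapped only between 16799 and 18053. The marker-poor cells had the larger gene number, with a median of 4998 genes against 4391. Among the Sox9Y440X/+ cells, the 5 marker-rich cells ranged from 15839 to 29002 FPKM and the 2 marker-poor cells held 10503 and 11322. Among the marker-rich wild-type cells, 3 had few genes (1209, 1974 and 2015 per label). They summed to 20141, 23980 and 19973 FPKM, with 30, 51 and 47 members detected. FPKM is scaled to the depth of the cell, and the part of gene number in these sums was not tested.

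Differences between classes were taken gene by gene as the mean log2(FPKM + 1) of the first class minus that of the second, on which scale low genes differ less than they do in FPKM. A gene was tabulated in a comparison where at least 20% of its cells had the gene detected, and called higher or lower at a difference of at least 1 log2 unit. In all, 75 members were tabulated in each of the 5 comparisons, 3 in some (Atp5s, Cox6b2 and Cox7a1) and 6 in none. Of those 6, Cox6a2, Cox7b2, Cox8b, Cox8c and Ndufa4l2 were listed at 0 in all 114 classed cells, and Cox4i2 was detected in few.

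In the wild type, 50 of 75 members were called higher in Foxi1-positive than in other epithelial cells and 0 were called lower, where 22.9% of all 5402 tabulated symbols were called higher and 3.81% lower. The median member difference was 1.28 log2 units against 0.36 over all symbols, and 72 of 75 members were above 0, as were 69.3% of all symbols. In Sox9Y440X/+, 43 of 77 members were called higher and 1 lower, against 23% and 12.1% of 6713 symbols, with a median of 1.10 against 0.16, and 70 of 77 were above 0, as were 56% of all symbols. Calls in both genotypes, whose cells are all different, covered 34 of 75 members, which is 68% of those called in the wild type and 79.1% of those called in Sox9Y440X/+. Over all symbols, 10.1% were called higher in both. Cytosolic ribosomal protein genes, a list added after the values were seen, had medians of -0.21 and -0.07 with 0 of 74 called higher in either genotype.

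The size of these differences depended on how the values of the cells were averaged. Taken as the log2 ratio of the mean FPKM values, the median member difference was 0.66 in the wild type and 0.48 in Sox9Y440X/+. The medians over all symbols were -0.03 and -0.05. In the wild type 17 of 75 members were then called, against 14.1% of all symbols. In Sox9Y440X/+ 12 of 77 were called, a share slightly below the 16.5% of all symbols. In cells with 2500 to 5500 genes the wild-type median was 1.04 with 41 of 75 called (22.1% of all symbols), against 0.28 over all symbols. Without cell 31 it was 1.45. The part of gene number in the difference was otherwise not tested.

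The division at 4 other ionocyte markers, made after the values were seen, gave different member differences on its 2 sides. The 11 marker-rich wild-type cells had 63 of 75 members called higher than in other epithelial cells and 0 lower (25.3% of all symbols called higher), with a median of 1.87 log2 units against 0.21 over all symbols. The 11 marker-poor cells had 33 of 75 higher and 2 lower (28.5% of all symbols higher), with a median of 0.68 against 0.48. In Sox9Y440X/+ the 5 marker-rich cells had 54 of 77 higher (25.4% of all symbols), with a median of 1.65 against 0.08, and the 2 marker-poor cells 25 of 75 higher and 16 lower (32.6% of all symbols higher), with a median of 0.54 against 0.29. The share of members called higher was thus nearer the background in the marker-poor cells, and close to it in the 2 of Sox9Y440X/+. The share of all symbols called lower was not computed for these divisions, so the counts of lower members have no background. Marker-rich wild-type cells had a median of 4391 genes per label and marker-poor ones 4998, and the part of this number in these differences was not tested.

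**Figure D2:**
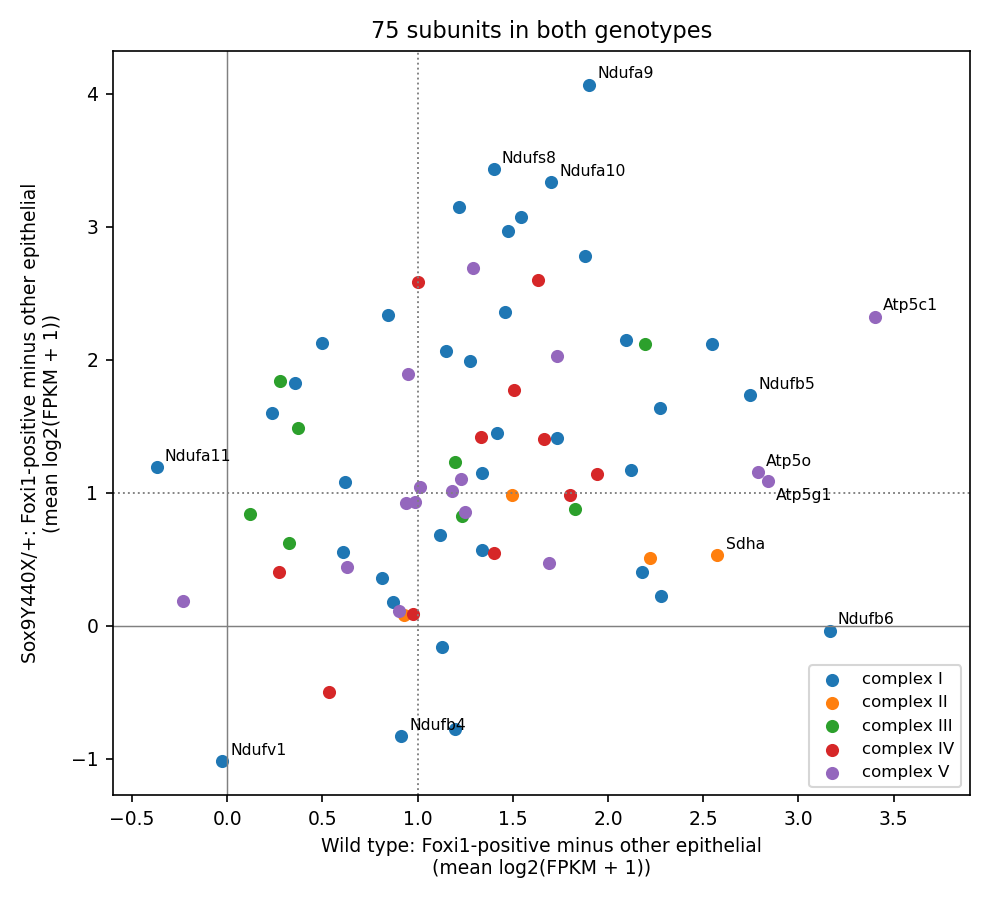
Difference of mean log2(FPKM + 1) between Foxi1-positive and other epithelial cells for the 75 members tabulated in both genotypes, wild type on the horizontal and Sox9Y440X/+ on the vertical axis, coloured by complex. Dotted lines mark 1 log2 unit. Ndufv1, at -0.02 and -1.02, is the only point below 0 on both axes.

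Complex I takes electrons from NADH through a core of catalytic subunits held in a shell of accessory ones. Of its 36 members, 25 were called higher in wild-type Foxi1-positive cells (median 1.34), and 24 higher and 1 lower in Sox9Y440X/+ (median 1.52). Over all symbols, 22.9% were called higher in the wild type, and 23% higher and 12.1% lower in Sox9Y440X/+. Core subunits, a grouping by role made after the values were seen, that were called higher in both genotypes included Ndufs1, Ndufs3, Ndufs7, Ndufs8 and Ndufv2. Ndufv1, the subunit that binds NADH, was called higher in neither.

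Ndufv1 (chr19:4007384-4012806, GRCm38, minus strand) read 0, 20.4 and 378 FPKM (lowest, median, highest) in wild-type Foxi1-positive cells and 0, 35.6 and 360 in other epithelial cells. In Sox9Y440X/+ it was detected in 2 of 7 Foxi1-positive cells (28.6%, exact 95% interval 3.67 to 71.0%) and 15 of 30 other epithelial cells (50%, 31.3 to 68.7%). These intervals overlap, and like all intervals here they cover counting error alone. Its difference was -0.02 in the wild type and -1.02 in Sox9Y440X/+. With ionocytes defined by the other markers in place of Foxi1 (at least 4 against fewer than 2), the wild-type value was 1.80. The ionocytes so defined are the marker-rich Foxi1-positive cells above, so this definition is not a separate check, here or below.

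Ndufa9, an accessory subunit at the joint of the 2 arms of complex I, had the largest difference of all members in Sox9Y440X/+, 4.07 log2 units, and 1.90 in the wild type. Its Sox9Y440X/+ values were 122, 154 and 459 FPKM in Foxi1-positive cells, all 7 of which had it, and 0, 5.91 and 399 in other epithelial cells, where 15 of 30 had it. In the wild type it read 0, 47.6 and 367 against 0, 0 and 495. The highest single readings thus lay at a like level, and the classes overlapped in both genotypes. Ndufs8, a core iron-sulphur subunit, followed at 3.43 and 1.40 log2 units, Ndufa10 at 3.34 and 1.70, and Ndufb2 at 3.14 and 1.22 (Sox9Y440X/+ first).

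Ndufb6, an accessory subunit of the membrane arm, showed the widest gap between genotypes, 3.16 log2 units in the wild type and -0.04 in Sox9Y440X/+. It was detected in 20 of 22 wild-type Foxi1-positive cells (median 123 FPKM) and 16 of 34 other epithelial cells (median 0). In Sox9Y440X/+ it was detected in 5 of 7 (median 171 FPKM) and 23 of 30 (median 115). The other epithelial cells thus differed more between genotypes than the Foxi1-positive cells did. The most abundant complex I members over all classes, Ndufb8 and Ndufa7, differed by 2.12 and 0.35 in the wild type and by 1.17 and 1.83 in Sox9Y440X/+. Ndufa11 had the lowest wild-type difference, -0.37, and stood at 1.19 in Sox9Y440X/+ (0.49 in the wild type with ionocytes defined by the other markers), while Ndufb4 and Ndufa6 stood at 0.91 and 1.20 in the wild type and at -0.83 and -0.77 in Sox9Y440X/+.

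Complex II, succinate dehydrogenase, is the only complex made wholly from nuclear genes and is also an enzyme of the TCA cycle. In the wild type 3 of its 4 members were called higher (22.9% of all symbols), with a median of 1.86. In Sox9Y440X/+ 0 of 4 were (23% of all symbols), with a median of 0.52 and single values from 0.08 to 0.98. Sdhb, the iron-sulphur subunit, read 0, 191 and 861 FPKM in wild-type Foxi1-positive cells and 0, 97.4 and 424 in other epithelial cells, a difference of 2.22. In Sox9Y440X/+ Sdhb read 0, 98.7 and 408 against 0, 158 and 459, and the difference was 0.50. Its median cell was therefore lower in the Foxi1-positive class there, although the mean of the logs was higher. Sdha, the flavoprotein, gave 2.57 and 0.53, and Sdhd, a membrane anchor, 1.5 and 0.98. Whether the genotypes differ in complex II was not tested.

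Complex III, which passes electrons to cytochrome c, had 4 of 8 members called higher in each genotype (medians 0.78 and 1.06). Among them 2, Uqcrq and Uqcr11, were called in both. Of all symbols, 22.9% and 23% were called higher, and 10.1% in both. Its most abundant member Uqcrh, the hinge subunit, read 0, 518 and 1722 FPKM in wild-type Foxi1-positive and 0, 434 and 1397 in other epithelial cells, a difference of only 0.32 log2 units. Uqcr11 differed by 1.19 in the wild type and 1.23 in Sox9Y440X/+.

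Complex IV, cytochrome c oxidase, had 8 of 11 tabulated members called higher in the wild type (median 1.40). In Sox9Y440X/+ it had 6 of 13 called higher (median 0.98). Of all symbols, 22.9% and 23% were called higher. Cox8a, its most abundant member, read 355, 873 and 2719 FPKM in wild-type Foxi1-positive cells and 0, 398 and 1163 in other epithelial cells. All 22 Foxi1-positive cells had Cox8a, and the lowest of them lay just under the median of the other class. In Sox9Y440X/+ Cox8a read 434, 614 and 1599 against 0, 420 and 1198, with differences of 1.66 and 1.40 log2 units. Cox6b1, which links the monomers of the oxidase, differed by 0.54 and -0.50, the second being 0.80 without Sox9Y440X/+ cell 16 and 1.06 with ionocytes defined by the other markers.

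Several complex IV subunits have a second gene used mainly in muscle, lung or testis. The widespread form Cox6b1 made up nearly all of the transcript of its pair. It held 99.4% of the summed mean FPKM of Cox6b1 and Cox6b2 in wild-type Foxi1-positive cells. The share was 95.8% to 98.4% in the other 4 groups apart from the lone wild-type connective cell. Cox7a1, the heart and muscle form, was detected in 5 of 22 Foxi1-positive cells of the wild type and 2 of 7 of Sox9Y440X/+, 4 of 34 and 6 of 30 other epithelial cells and 1 of 20 connective cells. Cox7a2 and Cox7a2l held the rest, with Cox7a2 at 52.3% in wild-type Foxi1-positive, 38.3% in wild-type other epithelial and 70.5% in connective cells. Cox4i2, the form known from lung and low oxygen, was detected in 3 of 22, 0 of 7, 4 of 34, 3 of 30 and 1 of 20 cells in the same order. Ndufa4, now known as a complex IV subunit, was detected in 20 of 22 wild-type Foxi1-positive cells and differed by 1.51 and 1.77, while its relative Ndufa4l2 was listed at 0.

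ATP synthase had 10 of 16 tabulated members called higher in the wild type (median 1.20) and 9 of 16 in Sox9Y440X/+ (median 1.03). Shares called higher over all symbols were 22.9% and 23%. Atp5c1 encodes the gamma subunit, the rotating shaft of the F1 head. At chr2:10056016-10080510 (minus strand), it had the largest wild-type difference of any member, 3.40 log2 units, with 2.32 in Sox9Y440X/+. Wild-type Foxi1-positive cells read 0, 402 and 884 FPKM with 21 of 22 detected (95.5%, exact 95% interval 77.2 to 99.9%). Other epithelial cells read 0, 106 and 723 with 22 of 34 detected (64.7%, 46.5 to 80.3%). The ranges overlap over almost their whole width, and the difference lay in the share of cells with the transcript and in the median.

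Atp5b, the catalytic beta subunit, was the most abundant member in Foxi1-positive cells of both genotypes. It read 477, 919 and 3279 FPKM in wild-type Foxi1-positive cells and 166, 498 and 1624 in other epithelial cells, and differed by 1.01 and 1.04 log2 units. It was detected in every epithelial cell, so its difference does not rest on missing values. Its partner Atp5a1, the alpha subunit, differed by 1.18 and 1.01. Atp5e, the small epsilon subunit, read 0, 550 and 1373 against 0, 324 and 2222 FPKM, with differences of -0.23 and 0.19: its median was higher and its mean log2 level lower in wild-type Foxi1-positive cells, 3 of which were listed at 0. As the log2 ratio of means the wild-type value was 0.21, and in cells with 2500 to 5500 genes 0.68. Atp5o, a subunit of the peripheral stalk that holds the head still, differed by 2.79 and 1.16.

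The ring that turns in the membrane is built of subunit c, for which 3 genes encode the same mature protein with different import sequences. Atp5g1 made up 49.3% of the summed mean FPKM of these genes in wild-type Foxi1-positive cells and 30.9% in other epithelial cells, and 39.6% and 28.8% in Sox9Y440X/+. Atp5g2 held 31.9% and 45.6% in the wild type, and 37.5% and 43.5% in Sox9Y440X/+. Atp5g1 was thus the leading gene in Foxi1-positive cells of both genotypes, narrowly in Sox9Y440X/+, and Atp5g2 in the other groups. Wild-type Atp5g1 read 0, 384 and 1789 FPKM against 0, 87.4 and 1128, a difference of 2.84 log2 units, with 1.09 in Sox9Y440X/+. Atp5g2 and Atp5g3 differed by 0.98 and 0.94 in the wild type. The highest cell gave 17.4% of the Atp5g1 total in wild-type Foxi1-positive cells.

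**Figure D3:**
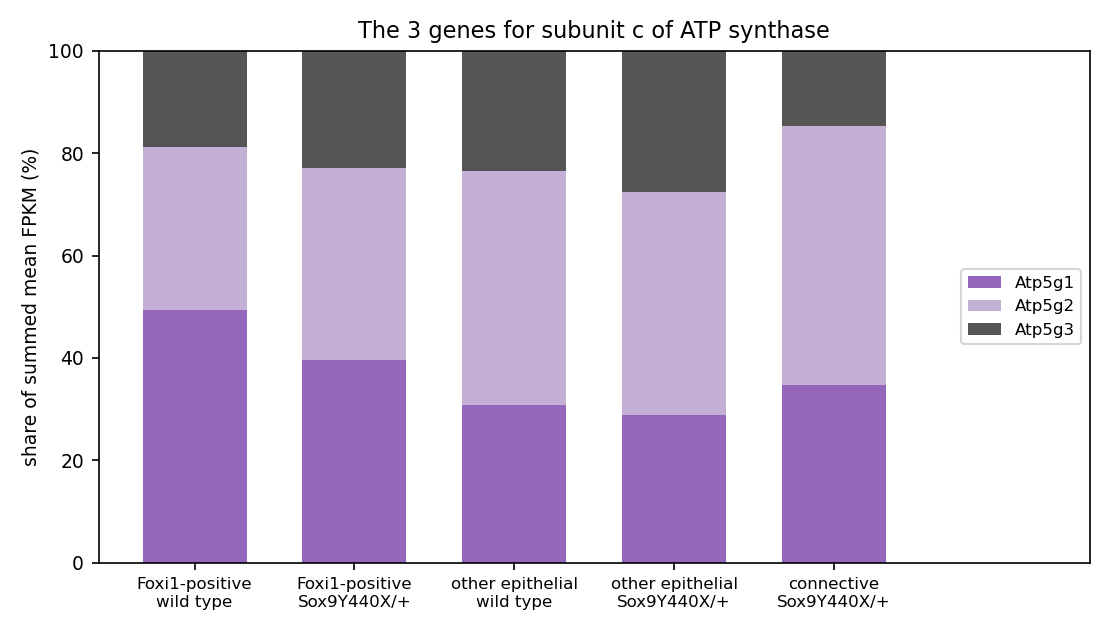
Share of Atp5g1, Atp5g2 and Atp5g3 in their summed mean FPKM (%), in 5 groups of cells. Bars are group shares with no error, since each genotype is 1 sample. Atp5g1 stands at 49.3% in wild-type Foxi1-positive cells and at 28.8% to 39.6% in the other groups.

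Lists of genes that feed or build the chain are read against the shares of all symbols given above, 22.9% higher in the wild type and 23% in Sox9Y440X/+. In the wild type, 12 of 18 tabulated genes of pyruvate oxidation and the TCA cycle were called higher in Foxi1-positive cells (median 1.3), as were 5 of 9 electron carriers and their suppliers (1.10), 11 of 21 carriers, porins and import proteins (1.10) and 8 of 20 assembly factors (0.79), with 0 called lower in these 4 lists. In Sox9Y440X/+ the TCA list had 11 of 19 higher and 3 lower (1.34), the porin list 11 of 22 higher and 1 lower (0.98), the carrier list 5 of 12 higher and 1 lower (0.39) and the assembly list 7 of 24 higher and 2 lower (0.35). The assembly list there, at 29.2% higher and 8.33% lower, was near the background of 23% and 12.1%.

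Dld, the shared E3 subunit of the pyruvate and oxoglutarate dehydrogenases, was detected in 18 of 22 wild-type Foxi1-positive and 5 of 34 other epithelial cells and differed by 3.72, and by 1.68 in Sox9Y440X/+. Mpc1, a subunit of the pyruvate carrier, differed by 2.63 and 2.05, and Chchd3, which shapes the inner membrane folds, by 2.58 and 3.62. Among assembly factors Cox20 differed by 2.60 and 1.72 and Cox14 by 1.54 and 1.12. Coq7, of ubiquinone synthesis, and Timm17a, of the import pore, were higher in the wild type alone, at 3.51 and 2.02 against 0.11 and -1.13, and Etfa, an electron-transfer flavoprotein, at 2.46 against 0.22. Whether the genotypes differ in these genes was not tested.

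No regulator of mitochondrial biogenesis was detected in enough wild-type cells to be tabulated in the Foxi1 comparison. In Sox9Y440X/+, 4 of 15 were, with a median of -0.47: Ppargc1a was called higher at 1.12, Pprc1 lower at -1.21, and Gabpb1 and Tfb2m stood at -0.45 and -0.48. Between Foxi1-positive cells of the genotypes, 4 were tabulated, with Tfam at 1.62, Nrf1 at 0.48, Ppargc1a at -0.30 and Esrrg at -1.18. Ppargc1a, the coactivator PGC-1alpha, was named after its values were seen: it was detected in 9 of 22 wild-type Foxi1-positive cells and 2 of 34 other epithelial cells, in 5 of 7 and 7 of 30 in Sox9Y440X/+, and in 0 of 20 connective cells. A single cell gave 47.3% of its wild-type Foxi1-positive total, and its mean FPKM in Sox9Y440X/+ was lower in Foxi1-positive (11) than in other epithelial cells (21.4). All 13 mitochondrially encoded subunits were listed at 0 in every cell, so the partners of these nuclear subunits give no result.

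Connective and other epithelial cells of Sox9Y440X/+ had a median member difference near 0. Of 75 members, 7 were called higher in connective cells and 7 lower, against 11.4% and 22.1% of 6646 symbols, with a median of 0.00 against -0.20. In cells with 2500 to 5500 genes 17 were higher and 10 lower, against 16.8% and 21.7% of all symbols, with a median of 0.10 against -0.08. By complex, the medians were 0.08 for complex I, -0.83 for complex II, -0.12 for complex III, -0.36 for complex IV and 0.34 for ATP synthase. All 4 complex II members were below 0, in a comparison where 41.5% of all symbols were above 0. The anchor Sdhc was lowest of them at -1.60 and was detected in 5 of 20 connective and 17 of 30 other epithelial cells.

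Single subunits parted in both directions. Atp5g3 read 0, 56.1 and 596 FPKM in connective cells and 0, 177 and 616 in other epithelial cells, a difference of -2.50, with 13 of 20 and 26 of 30 cells detected. Uqcrb stood at -1.68 and Ndufs4, an accessory subunit of the electron-input arm, at -1.61. In the other direction Ndufc1 was detected in all 20 connective cells (4.03, 97.2 and 185 FPKM) and 20 of 30 other epithelial cells (0, 15.4 and 302), a difference of 2.34. Ndufb8 differed by 2.08, Ndufb2 by 1.98 and Atp5j, of the peripheral stalk, by 1.54.

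**Figure D4:**
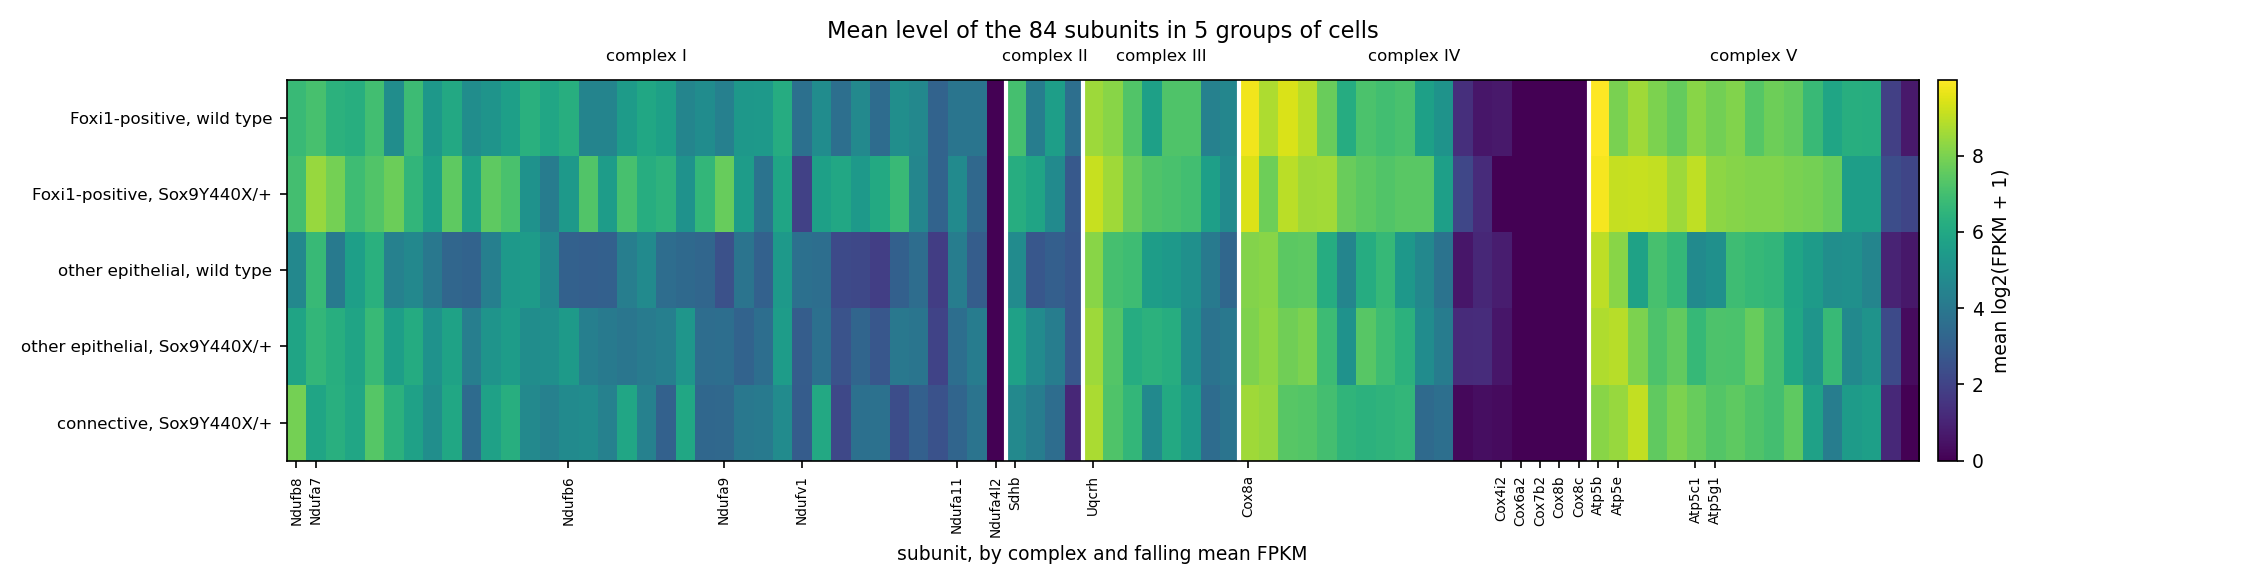
Mean log2(FPKM + 1) of the 84 subunits (columns, ordered by complex and by mean FPKM, with Ndufa4l2 at the end of complex I) in 5 groups of cells (rows). Some columns are named, and colour gives the level from 0 upward. Columns that are dark in every row include the 5 subunits listed at 0.

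The genotype comparisons within a class use the same cells as those above and are not independent of them. Among other epithelial cells, 22 of 75 members were called higher in Sox9Y440X/+ and 0 lower, against 19.8% and 2.44% of 5808 symbols, with a median of 0.51 against 0.40. The share of members called higher was thus 29.3%, above the 19.8% of all symbols, and the medians were close. It came with the difference in gene number given above (medians 4380 and 3046), and in cells with 2500 to 5500 genes the median was 0.23 against 0.20 over all symbols, with 19 members higher and 4 lower (15.3% and 7.83% of all symbols). Against the 10 wild-type cells without Xist it was 0.13 against 0.30.

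Among single members, Ndufb5 was detected in 24 of 30 Sox9Y440X/+ and 16 of 34 wild-type other epithelial cells and differed by 2.48, with readings of 0, 166 and 476 FPKM against 0, 0 and 387. Ndufb6 followed at 2.36, Atp5o at 2.23 and Atp5g1 at 2.18. Ndufv1 was lowest at -0.74 (0.05 against wild-type cells without Xist), then Uqcrc1, a core protein of complex III, at -0.73, Ndufa12 at -0.68 and Ndufa11 at -0.66. Uqcrc1 read 0, 154 and 528 FPKM in Sox9Y440X/+ and 0, 290 and 869 in the wild type, and the ranges overlapped.

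Between Foxi1-positive cells of the 2 genotypes, 24 of 77 members were called higher in Sox9Y440X/+ and 4 lower, against 22.8% and 11.1% of 6920 symbols, with a median of 0.50 against 0.22, and 55 of 77 were above 0, as were 58.7% of all symbols. The 7 Sox9Y440X/+ cells weigh heavily here: without cell 62, the one of highest member sum, the median was 0.27. Taken as the log2 ratio of the means it was 0.04, with 2 higher and 5 lower (18.6% and 21.1% of all symbols), and in cells with 2500 to 5500 genes 0.14 against 0.12 over all symbols. Summed member FPKM overlapped almost wholly, with medians of 17982 and 19720. The 2 groups also differed in their mix, with 5 of 7 Sox9Y440X/+ and 11 of 22 wild-type cells marker-rich. Of 9 tabulated ionocyte markers other than Foxi1, 2 were called higher and 5 lower in Sox9Y440X/+, with a median of -2.07. The part of this mix in the member differences was not tested.

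Ndufa9 led at 3.29 log2 units, detected in 7 of 7 Sox9Y440X/+ and 14 of 22 wild-type cells. Ndufs6 stood at 2.82, with 92.1, 220 and 402 FPKM against 0, 106 and 521, and Ndufa10 at 2.51. Lower in Sox9Y440X/+ were Ndufv1 at -1.73, Ndufa6 at -1.72, Ndufv3 at -1.57 and Ndufb11 at -1.27. Of these, Ndufb11 was detected in 5 of 7 Sox9Y440X/+ and 20 of 22 wild-type cells, with medians of 112 and 139 FPKM. Ndufb11 lies on the X chromosome, and its value against wild-type cells without Xist is not given. In each of these 4 lower genes the Sox9Y440X/+ readings lay inside the wild-type range.

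**Figure D5:**
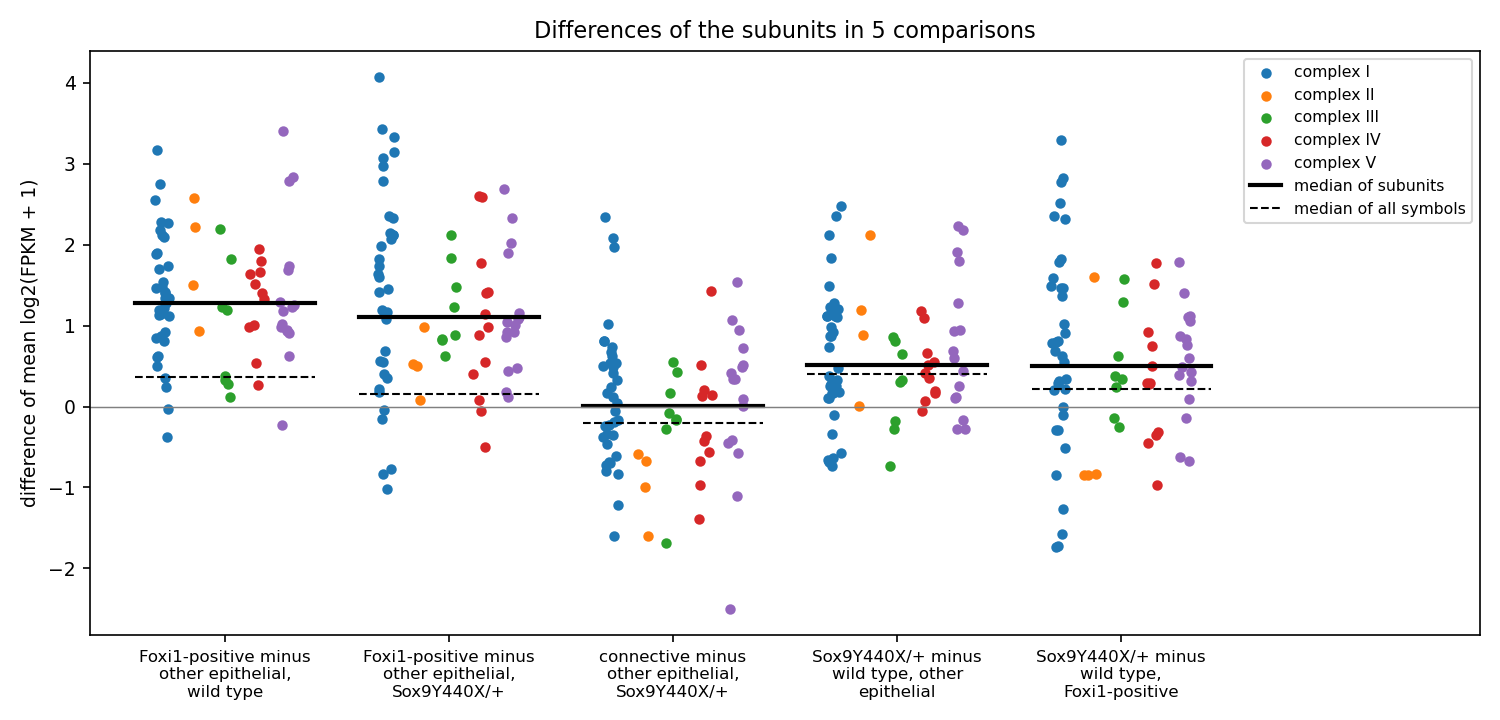
Difference of mean log2(FPKM + 1) for each tabulated subunit in the 5 comparisons, coloured by complex. Solid bars are member medians and dashed bars the medians of all tabulated symbols, which are 1.28 and 0.36 in the first comparison and 0.51 and 0.40 in the fourth.

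Reads of some members may be shared with other genes. In GENCODE M21, 29 of the 84 members have an exon that overlaps an exon of another gene, mostly on the opposite strand. Smart-seq2 libraries do not mark strand, so such reads cannot be told apart. Examples among the genes described are Ndufb6 with Smim27, Ndufb5 with Mrpl47, Ndufs6 with Mrpl36, Atp5j with Gabpa, Ndufa11 with Vmac and Ndufb8 with Gm20538. Ndufa9 overlaps 1700018A23Rik, Ndufb2 overlaps Braf among others, and Atp5o overlaps a further entry of the same name and antisense genes. Atp5a1 overlaps Haus1, Ndufs1 overlaps Eef1b2, Ndufs3 overlaps Kbtbd4, Ndufb11 overlaps Rbm10 and Uqcrb overlaps Gm10767. How reads matching processed pseudogenes were assigned is not given in the sources used here, so levels of single subunits are uncertain to that extent.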

How the data were processed

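Single-cell Smart-seq2 values were deposited by the authors as FPKM in 1 table with 48555 entries for 120 cells. HISAT2, Cufflinks, HTSeq, SAMtools 0.1.18 and build mm10 are named in the submitters' processing notes, with roles and settings not given in the sources used here. Since FPKM carries no counts, depth per cell is unknown, and an exact 0 can be a failed estimate (Gapdh was at 0 in 2 used cells). Entries sharing a symbol were summed. Means of log2(FPKM + 1), with a pseudocount of 1, were compared without a test, since each genotype is 1 sample. Cells were classed by marker counts, with no clustering and no doublet caller; 3 used cells had at least 3 markers of both lists. Shares of cells have exact Clopper-Pearson 95% intervals. The tabulation was tested on simulated data.

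Members named were the 2 of highest mean FPKM per complex, up to 4 of largest positive and negative difference per comparison, paralogues, those at 0, and 2 genes of each other list by wild-type difference; others named were chosen after their values were seen. One member that the rule names is not reported here. The members and all lists were chosen with earlier results of these data known. Coordinates are from GENCODE M21 (GRCm38), and promoters from RefSeq; motif forms and the 30-base windows were chosen after earlier matches were seen. Python 3.11.15, pandas 2.3.3, NumPy 2.4.6 and SciPy 1.17.1 were used. Alternatives are given in the closing section.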

Additional observations from a re-analysis of the deposited data

How the results depend on the processing

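The median member differences of the 5 comparisons and 28 named members were recomputed under other settings. No median changed sign. Counts of members called without a share of all symbols under the same setting are not read against a background. Of 494 values of named members, 404 stayed within 1.5 times, or within 0.5 log2 units where not called, and 90 moved more. The sign changed in 11, of Ndufv1, Atp5e, Ndufa11 and Cox6b1, none of them called as reported. With a pseudocount of 10, the wild-type Foxi1 median was 0.81 (24 called higher), the Sox9Y440X/+ one kept 28 higher, and the genotype medians were 0.28 (8 higher) in other epithelial and 0.22 (10 higher, 2 lower) in Foxi1-positive cells. With a pseudocount of 0.1, the last was 0.75 (8 lower). Taken as log2 ratios of mean FPKM, the medians were 0.66 and 0.48 for the wild-type and Sox9Y440X/+ Foxi1 comparisons, 0.12 for connective cells (3 higher, 2 lower), 0.11 for genotype in other epithelial cells (5 higher, 1 lower) and 0.042 for genotype in Foxi1-positive cells. Scaling to the same total gave 0.13 for connective cells, also without each cell's most abundant symbol, and moved no median over all symbols by 0.1. In cells with 2500 to 5500 genes, connective cells had 17 members higher and 10 lower, and the genotype medians were 0.23 and 0.14. Without Xist-positive wild-type cells the genotype median in other epithelial cells was 0.13 (15 higher, 5 lower), and in Foxi1-positive cells 8 were lower. Counts of lower members, all small, ranged from 0 to 3 in the Foxi1 comparisons and 2 to 9 for genotype in Foxi1-positive cells. Leaving out each Sox9Y440X/+ Foxi1-positive cell in turn gave 0.98 to 1.40 for the Foxi1 median and 0.27 (without cell 62) to 0.71 for the genotype median. With no filter on low values, all 84 members gave 1.21 in the wild type with the same 50 called. The settings that left out the most abundant symbols, cell 31 or marker-poor cells were added after the values were known. No paired analysis was possible because a cell's number is only its name and nothing was tested. FPKM without counts limits what can be said of low members, and the causes of these moves were not tested.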

Other observations

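Cytosolic ribosomal proteins made up a median of 10.6% of FPKM in wild-type and 12.5% in Sox9Y440X/+ Foxi1-positive cells, 11.8% and 13.7% in other epithelial cells and 16.1% in connective cells, an order unlike that of the respiratory chain. The lone wild-type connective cell held 9619 member FPKM (2.31% of its total), and the Sox9Y440X/+ cell in neither class 7751. The 5 cells left out for fewer than 1000 genes held 0 to 2774 member FPKM. Esrrg, an orphan nuclear receptor, was detected in 6 of 22 Foxi1-positive cells of the wild type and 0 of 7 of Sox9Y440X/+, 1 of 34 and 1 of 30 other epithelial cells and 1 of 20 connective cells.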
